A study of Mus musculus with 104 samples.

Results

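S100 proteins, annexins and Capg were followed in brain tissue of ageing mice through 14 array probes for 10 genes (S100a4, S100a6, S100a8, S100a9, S100a10, Anxa2, Anxa3, Anxa4, Anxa5 and Capg). A probe was taken when its gene name in the scanner file, or the current symbol of its RefSeq identifier, was one of these genes. The array design used for most tissues held 41174 probes for 28786 gene names, and the second design, used for CBA hypothalamus and BALB frontal cortex, held 43674 probes for 30993 gene names. Anxa4 had 3 probes, Anxa2 and Anxa3 had 2 probes each, and the other 7 genes had 1 probe each.

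S100 proteins are small calcium-binding proteins, annexins bind membrane phospholipids when calcium is present, and Capg caps the ends of actin filaments and is prominent in macrophages. S100a8 and S100a9 pair to form calprotectin, a major protein of the neutrophil cytosol. S100a10 pairs with annexin A2 at the inner face of the plasma membrane, and S100a4 and S100a6 are found in fibroblasts, some immune cells and some glia. In brain, signal for these genes can come from several cell types at once, among them microglia, blood cells, meninges and endothelium.

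Single mice were arrayed one by one, as whole-tissue RNA labelled with Cy3, in 7 cohorts of strain and brain region. Of 104 deposited arrays, the 96 with scanner files were used. Young mice were 2 to 3 months old and middle-aged mice 12 to 13 months old in every cohort that held them. BALB hypothalamus had 7 young, 5 middle-aged and 6 aged mice (20 to 23 months). C57BL/6 hypothalamus had 5 young and 5 aged mice (22 to 24 months). C57BL/6 cerebellum had 4 young, 2 middle-aged and 6 aged mice, BALB cerebellum had 5, 6 and 4, BALB striatum had 3, 5 and 5, and CBA hypothalamus had 7, 5 and 8, with aged mice of 21 to 23 months in these 4 cohorts. BALB frontal cortex came from females, with 4 young and 4 older mice of 15 to 16 months. The mice of the other cohorts were males. The labels name no transgene and no drug, and C57BL/6 hypothalamus is labelled C57BL6/J. Mice came from an ageing colony, and the arrayed male BALB and C57BL/6 mice had first been recorded in home cages. Age was the contrast within each cohort. In whole tissue, fewer cells of a type and less RNA per cell cannot be told apart.

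The share of probes well above background, the scanner software's test of a spot against its surroundings, was 56.1% to 91.4% over the 96 arrays. BALB hypothalamus young replicate 1 had 89.3%, against 59.8% to 69.6% on the other arrays of that cohort. In C57BL/6 cerebellum the mean log2 signal of a list of cerebellar genes had a young median of 13.51. The lowest young array stood at 12.06 and the highest at 13.60. On the middle-aged and aged arrays it was 13.21 to 13.65. Hypothalamic genes there reached 8.03 on an aged array, against an aged median of 6.79. The mean signal of hypothalamic genes was 12.30 to 13.01 in CBA, 11.70 to 12.40 in C57BL/6 and 11.14 to 11.93 in BALB hypothalamus. Several BALB libraries went against their labels. In the cohort labelled BALB cerebellum the cerebellar genes stood at 9.08 to 9.58 on the young arrays and 8.99 to 11.22 on the middle-aged arrays, against 13.69 to 14.52 on the aged arrays. In the cohort labelled BALB striatum they stood at 13.57 to 14.48 on every array but an aged one at 9.19, while striatal genes stood at 7.70 to 8.83. One aged array labelled C57BL/6 hypothalamus had cerebellar genes at 12.71, and striatal genes spanned 9.62 to 13.72 on the young frontal cortex arrays. Age and tissue content cannot be told apart in the BALB cerebellum cohort, so its values are given for completeness.

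Signals are log2 values, quantile normalized within a cohort, so that a difference of 1 is a doubling. Each probe was tested with limma, with all ages of a cohort in a single fit, and was called when its log odds of a difference, B, were above 0. The study's methods ask in addition for a false discovery p under 0.05, so the adjusted p is given for each call of this main fit. Adjusted p-values are Benjamini-Hochberg values over all probes tested in that comparison. Levels of different probes are not comparable, because each probe binds its target with its own efficiency.

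Capg was the only member called in 2 cohorts, C57BL/6 cerebellum and BALB hypothalamus. In C57BL/6 cerebellum the young mice had 9.71, 9.81, 10.13 and 9.66, the middle-aged mice 9.65 and 9.65, and the aged mice 10.22, 10.49, 10.47, 10.25, 10.61 and 10.48. Every aged mouse stood above every young mouse. The difference, aged minus young, was 0.59 ± 0.12 (SE), a fold of 1.51, and was called (B = 0.45, limma adjusted p = 0.151). Groups that did not overlap, with the aged mice higher, were found at 1.60% of all tested probes in this cohort. The difference was 0.54 to 0.70 with any 1 of the 10 young and aged mice left out, and the call held in 3 of those 10 fits (without young replicate 3, aged replicate 1 or aged replicate 4).

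In BALB hypothalamus, Capg was 8.47 at the lowest, 8.82 at the median and 9.1 at the highest young mouse. The middle-aged mice had 9.22, 9.33, 9.12, 9.24 and 9.16. The aged mice ran from 9.39 through a median of 9.54 to 9.96. The 3 ages were stacked without overlap, with the middle-aged mice in between. The share of all tested probes with the 3 ages so stacked was not counted. From young to aged the difference was 0.73 ± 0.11 (SE), a fold of 1.65, and was called (B = 4.65, limma adjusted p = 0.00272), also in 13 of 13 fits with a mouse left out. Groups apart with the aged mice higher were found at 0.605% of all tested probes. The middle-aged difference of 0.36 ± 0.11 was not called (limma adjusted p = 0.339), and middle-aged mice all above the young ones were found at 0.813% of all tested probes.

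Capg is shown by its probe because it was the member called in both cohorts, and S100a4 because it was called in C57BL/6 cerebellum. Both lines give the first 30 of the 60 bases, from the scanner files. The Capg probe lies on mm7, plus strand, at chr6:72579003-72580755, a span of 1752 bases for 60 bases of probe. The S100a4 probe lies at chr3:90736122-90736182, plus strand.
Capg: gctgatggcttcatctctcgaatgaggtat
S100a4: agtgttggggtgtagtttgccagtggggga

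S100a4, which binds non-muscle myosin and is found in motile cells, was 9.87, 10.05, 10.03 and 9.91 in young C57BL/6 cerebellum. The middle-aged mice had 9.84 and 10.20, and the aged mice 10.63, 10.55, 10.31, 10.97, 10.64 and 11.11. All 6 aged mice stood above all 4 young and both middle-aged mice. Aged mice all above the young ones were found at 1.60% of all tested probes in this cohort. The share in which they also stood above the middle-aged mice was not counted. The difference was 0.74 ± 0.15 (SE), a fold of 1.67, and was called just past the threshold (B = 0.12, limma adjusted p = 0.172). With single mice left out it was 0.66 to 0.81, and was called in 1 of 10 fits, without aged replicate 3. In BALB hypothalamus the young mice ran from 10.18 through 10.49 to 10.77, and the aged mice from 10.47 through 11.33 to 11.80. A single aged mouse, replicate 2, lay within the young range. The difference there was 0.79 ± 0.19 (SE), a fold of 1.73, and was not called (B = -0.36, limma adjusted p = 0.0936). Without that mouse it was 0.96 and was called (B = 2.95).

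S100a6, a close neighbour of S100a4 on chromosome 3, is known from fibroblasts and glia. It was 12.58, 13.21, 13.20 and 13.06 in young C57BL/6 cerebellum and 13.44, 13.48, 13.11, 13.27, 13.61 and 13.60 in aged mice. The groups overlapped through aged replicate 3. The difference of 0.41 ± 0.15 was not called (limma adjusted p = 0.63). In BALB hypothalamus it ran from 12.71 through 13.25 to 13.52 in young mice and from 13.17 through 13.85 to 14.38 in aged mice. The difference of 0.62 ± 0.17 (fold 1.54) was not called either (B = -1.02, limma adjusted p = 0.145), but was without aged replicate 2, the lowest aged mouse here too.

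**Figure D1:**
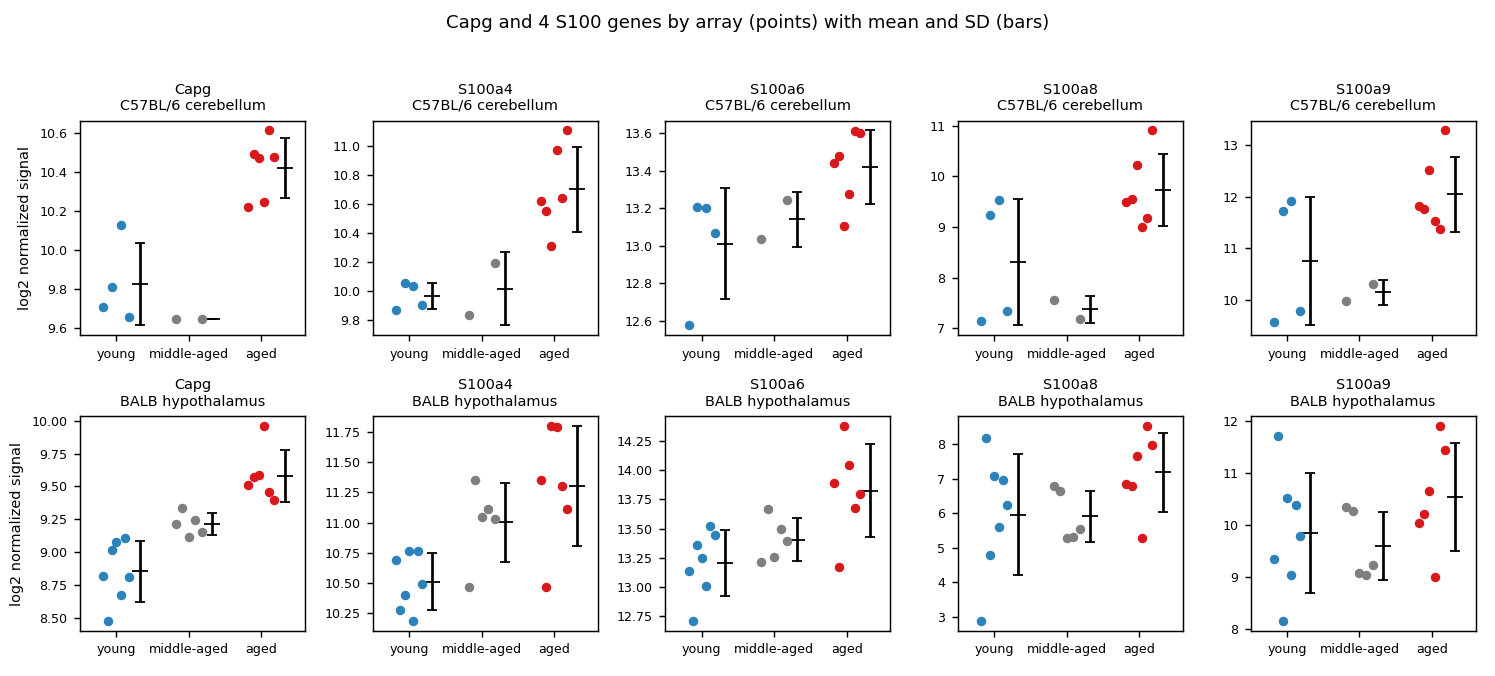
Log2 normalized signal (vertical axis, no other unit) of Capg, S100a4, S100a6, S100a8 and S100a9 on each array of C57BL/6 cerebellum (upper row) and BALB hypothalamus (lower row), by age, with the mean and SD beside the points. Aged points of Capg lie above all young points in both rows, whereas the young points of S100a8 and S100a9 reach into the aged range.

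Calprotectin genes showed wide differences between mice of the same age. S100a8 in young C57BL/6 cerebellum was 7.14, 9.23, 9.53 and 7.33, in the middle-aged mice 7.56 and 7.19, and in the aged mice 9.50, 9.56, 10.23, 9.0, 9.18 and 10.91. The young group held a low and a high pair, and the high pair lay inside the aged range. The difference of 1.42 ± 0.52 (SE), a fold of 2.68, was not called (limma adjusted p = 0.63). S100a9 split the same mice, with 9.58, 11.72, 11.91 and 9.78 in young, 9.98 and 10.32 in middle-aged, and 11.81, 11.76, 12.51, 11.53, 11.37 and 13.29 in aged mice. Its difference of 1.30 ± 0.52, a fold of 2.45, was not called (limma adjusted p = 0.667).

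In BALB hypothalamus S100a8 ran from 2.88 through 6.23 to 8.16 in young and from 5.29 through 7.25 to 8.52 in aged mice. The middle-aged mice had 6.79, 6.64, 5.29, 5.31 and 5.55, and only 2 of these 5 were well above background. The difference of 1.22 ± 0.70 was not called (limma adjusted p = 0.672), and was 0.73 without young replicate 1, which held the value of 2.88, 0.56 with normexp and 0.59 with the deposited table. S100a9 ran from 8.15 through 9.78 to 11.70 in young and from 9.0 through 10.42 to 11.90 in aged mice, a difference of 0.70 ± 0.52 (limma adjusted p = 0.764), and was 0.41 without young replicate 3. Over all 19 groups of the series, the median SD between mice of a group was 1.03 for S100a8 and 1.02 for S100a9, against 0.36 for Capg, 0.34 for S100a4 and 0.17 for Anxa5. The median SD of all probes among young mice was 0.19 to 0.41 by cohort.

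S100a8 was near background in CBA hypothalamus. Young mice ran from 2.20 through 3.62 to 4.58, with 2 of 7 well above background, and aged mice from 1.78 through 5.31 to 6.13, with 7 of 8 well above background. None of the 5 middle-aged mice was well above background. The aged difference was 1.45 ± 0.50 (SE), with most young values at background, and was not called (limma adjusted p = 0.538). With normexp it was 0.43 and with the deposited table it was 0.47, and was called in both (B = 0.12 and B = 0.18). Without aged replicate 3, the mouse at 1.78, the difference was 1.90 and was called (B = 2.52, limma adjusted p = 0.0311). The probe passed the filter mainly through the aged mice. Its differences and calls here therefore rest on young values mostly at background. S100a9 in the same mice was 5.64 to 7.46 young and 5.68 to 9.32 aged, a difference of 0.94 ± 0.42 (limma adjusted p = 0.732).

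Neutrophil genes were read beside these values, because both calprotectin genes are strong in neutrophils. Of 13 listed neutrophil genes, 10 were tested in C57BL/6 cerebellum and none was called, with 9 higher in aged mice. Their mean level was 5.11 to 6.60 in young and 6.15 to 7.43 in aged mice. Among them, Lcn2 (lipocalin 2) differed by 1.93 ± 0.49 (limma adjusted p = 0.373). In BALB hypothalamus 4 were tested and none was called, with levels of 4.52 to 6.23 young and 4.73 to 6.84 aged. In CBA hypothalamus 2 were tested, and Elane, Mmp8, Retnlg and Stfa2l1 were never well above background. Red blood cell genes stood at 12.83 to 13.40 young and 13.30 to 14.06 aged in C57BL/6 cerebellum, and at 12.23 to 14.51 and 12.53 to 13.26 in BALB hypothalamus, with none called. The part of blood left in the tissue in the calprotectin values was not tested.

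Annexin A4 binds membranes in secretory and epithelial cells, and its 3 probes did not read alike. The first 30 of 60 bases are shown because the probes target different stretches of the locus, all on the minus strand of chromosome 6 (mm7). A_51_P256342 lies at chr6:86812115-86812175 and A_51_P256344 at chr6:86812466-86812526, with starts 351 bases apart. A_52_P456440 lies at chr6:86822824-86822883, 10358 bases from the nearer of them, and was designed against a clone transcript. GC content was 45%, 41.7% and 38.3% in this order.
A_51_P256342: tgtcctaatcttgctgaaagtgacagtcaa
A_51_P256344: agtacaaattttacagatcagaagccattt
A_52_P456440: ggggggacactaaactattatagaataatt

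Probe A_51_P256342 in BALB hypothalamus ran from 8.15 through 8.36 to 8.79 in young mice and from 8.59 through 9.20 to 9.78 in aged mice. The middle-aged mice had 8.67, 8.45, 8.44, 8.81 and 8.51, within or just above the young range. Only the lowest aged mouse reached into the young range. The aged difference was 0.72 ± 0.15 (SE), a fold of 1.64, and was called (B = 0.90, limma adjusted p = 0.0404). The call was lost without aged replicate 3 (0.70) or aged replicate 4 (0.71).

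A_51_P256344 ran from 4.07 through 6.37 to 6.62 in young and from 6.46 through 7.17 to 7.82 in aged mice of the same tissue. Its difference was 1.12 ± 0.33 (SE), and was not called (B = -1.85, limma adjusted p = 0.222). With normexp background correction it was 0.54, against 0.58 for A_51_P256342, and with the deposited log2 table it was 0.59 against 0.58, and it was called in both. Without young replicate 1, the array at 4.07 and the one with the highest share of probes well above background, it was 0.81 and was called (B = 0.16). A_52_P456440 stood at 2.17 to 2.58 young, 2.31 to 2.55 middle-aged and 2.15 to 3.04 aged, was well above background on 0 arrays of this cohort, and was not tested.

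None of the 3 Anxa4 probes differed with age in C57BL/6 cerebellum beyond its error. Means were 10.04 young and 10.07 aged for A_51_P256342 (0.03 ± 0.10), 8.08 and 7.98 for A_51_P256344 (-0.10 ± 0.17), and 4.12 and 4.13 for A_52_P456440 (0.01 ± 0.38). The signs of these small differences changed when single mice were left out. A_52_P456440 was well above background in 2 of 4 young, 2 of 2 middle-aged and 4 of 6 aged mice there. Over the series it passed on 19 of 96 arrays, with 12 of 19 groups holding no such array.

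**Figure D2:**
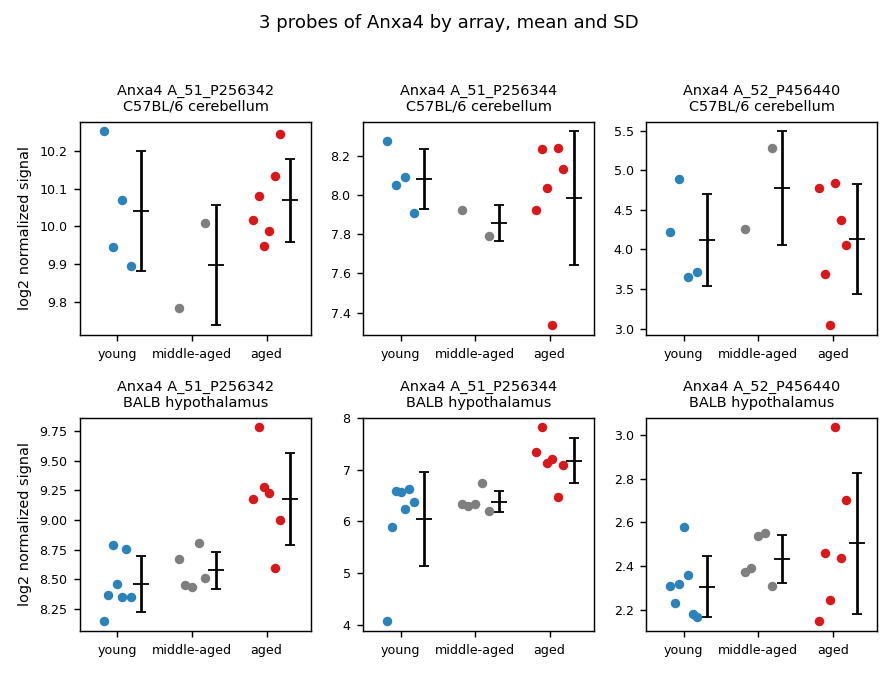
Log2 normalized signal (vertical axis) of the 3 Anxa4 probes on each array of C57BL/6 cerebellum (upper row) and BALB hypothalamus (lower row), by age, with mean and SD. In BALB hypothalamus the aged points of A_51_P256342 and A_51_P256344 lie mostly above the young ones, and A_52_P456440 stays between 2.15 and 3.04.

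S100a10 and annexin A2, which form a heterotetramer, did not differ with age beyond the test in either cohort. S100a10 was 12.84 ± 0.24 (SD) in young and 12.68 ± 0.26 in aged C57BL/6 cerebellum, a difference of -0.16 ± 0.15 (SE, limma adjusted p = 0.85). In BALB hypothalamus it was 12.26 young and 12.36 aged, a difference of 0.11 ± 0.09. The Anxa2 probes, A_51_P165342 and A_52_P62037, differed by -0.19 ± 0.14 and -0.10 ± 0.13 in C57BL/6 cerebellum and by 0.23 ± 0.16 and 0.39 ± 0.15 in BALB hypothalamus. The last of these had a limma adjusted p of 0.442.

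Annexin A3 was read by A_51_P451032, well above background on all 96 arrays. It was 11.23 ± 0.10 (SD) in young and 11.49 ± 0.16 in aged C57BL/6 cerebellum, a difference of 0.26 ± 0.11 (SE, limma adjusted p = 0.681), and differed by 0.26 ± 0.18 in BALB hypothalamus. Its other probe, A_51_P430240, designed against a clone transcript, was well above background on 2 of 96 arrays, both frontal cortex, and was tested nowhere. Annexin A5, the annexin used to stain dying cells, was among the steadiest members between mice. It was 14.91 young and 14.88 aged in C57BL/6 cerebellum and 13.68 young and 13.93 aged in BALB hypothalamus, where the difference was 0.26 ± 0.09 (limma adjusted p = 0.353).

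Counted together, 13 of 14 member probes were tested in C57BL/6 cerebellum. Of these, 2 were called by B, Capg and S100a4, both higher, and 0 had an adjusted p under 0.05, against 0.299% of all tested probes (104 of 34732). The median member difference was 0.03 and 8 of 13 were higher, against -0.01 and 48.5% over all probes. In BALB hypothalamus 12 were tested and 2 were called, Capg and Anxa4 A_51_P256342, both higher and both with an adjusted p under 0.05, against 0.692% of all tested probes (191 of 27618). All 12 were higher, with a median of 0.66, against 53.5% and 0.01 over all probes. An unadjusted limma p under 0.05 was reached by 6 of 13 member probes, against 7.1% of all probes, in C57BL/6 cerebellum and by 7 of 12, against 8.41%, in BALB hypothalamus. The members were chosen with earlier results of these data known, and Anxa2 and Anxa4 count with several probes. These shares are therefore descriptions and no independent test of the members. Anxa3 A_51_P430240 failed the filter on low signal in both, and Anxa4 A_52_P456440 in BALB hypothalamus.

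The 5 other cohorts gave no called member from young to aged. In C57BL/6 hypothalamus 13 member probes were tested, none with an unadjusted limma p under 0.05 (4.54% of all probes), where 0.118% of all probes were called. Thalamic genes stood at 9.0 to 9.93 in young and 10.03 to 10.67 in aged mice of that cohort, and the part of this in the member values was not tested. In CBA hypothalamus 12 were tested and 4 had an unadjusted p under 0.05 (6.5% of all probes), where 0.372% of all probes were called. BALB cerebellum had 1 of 12 member probes with such a p against 25.9% of all probes, and 5.96% of all probes called, in a cohort whose ages differed in the cerebellar genes. BALB striatum (1 of 12, against 0.509%) and BALB frontal cortex (0 of 12, against 4.67%) had 0% called. With any 1 array left out, the only member called in these 5 cohorts was S100a8 in CBA hypothalamus, without aged replicate 3. Most young values of that probe lay at background.

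Capg in C57BL/6 hypothalamus was 9.93, 9.94, 9.32, 9.12 and 9.45 in young and 9.09, 10.35, 9.42, 10.61 and 9.67 in aged mice. The aged values spread to both sides of the young range. The difference was 0.27 ± 0.29 (limma adjusted p = 0.997). S100a4 in the same mice was 11.25, 11.12, 10.99, 10.38 and 11.07 young and 10.33, 10.92, 10.59, 11.20 and 10.56 aged, a difference of -0.24 ± 0.20. Anxa4 A_51_P256342 differed there by 0.11 ± 0.11. In CBA hypothalamus Capg ran from 8.10 through 8.47 to 8.86 in young and from 8.10 through 8.99 to 9.57 in aged mice, a difference of 0.44 ± 0.17 (limma adjusted p = 0.608). Both Anxa4 probes tested there were level, at 0.07 and 0.12.

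Among the BALB cohorts with doubtful tissue content, the aged BALB cerebellum mice had S100a8 at 10.48, 8.70, 13.03 and 10.10, against 7.49, 9.15, 9.16, 9.69 and 8.92 in young mice. A single aged mouse, replicate 3, stood far above the rest. The difference was 1.70 ± 0.76 (limma adjusted p = 0.171). S100a4 differed there by -0.84 ± 0.41 and Capg by 0.67 ± 0.40 and neither was called. In BALB striatum Anxa4 A_51_P256342 was 10.12 ± 0.27 (SD) young and 9.76 ± 0.21 aged, a difference of -0.36 ± 0.16 (limma adjusted p = 1). In frontal cortex Anxa5 was 13.72 ± 0.12 young and 13.94 ± 0.07 in the older mice, with no overlap, as at 0.804% of all tested probes, and a difference of 0.22 ± 0.16 that was not called.

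**Figure D3:**
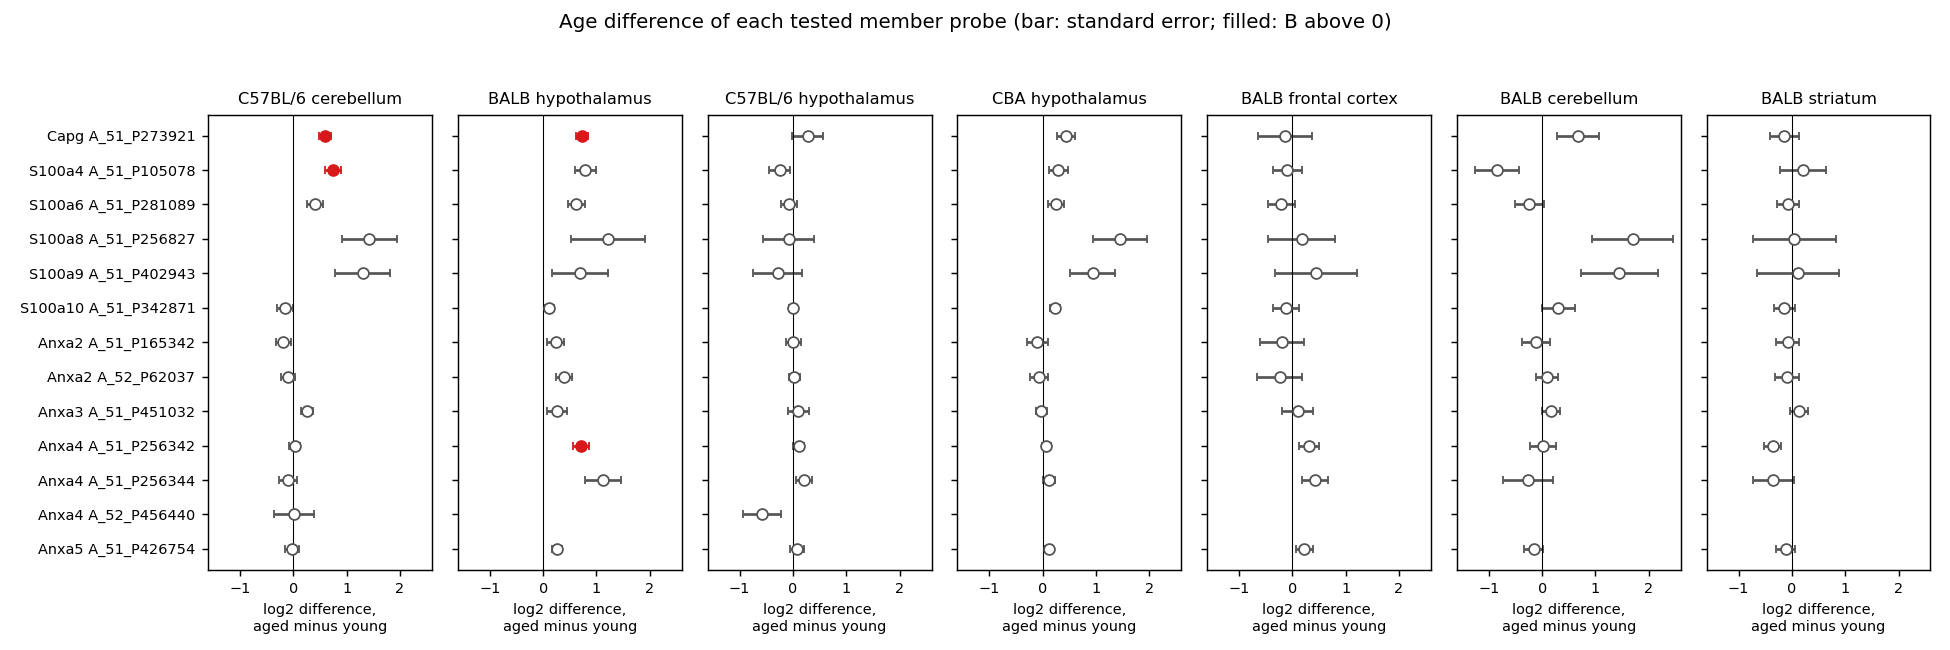
Log2 difference, aged minus young (horizontal axis), of each tested member probe in the 7 cohorts, with its standard error as a bar and a filled point where B was above 0. Filled points are Capg and S100a4 in C57BL/6 cerebellum and Capg and Anxa4 A_51_P256342 in BALB hypothalamus.

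Middle-aged mice gave no called member in any of the 5 cohorts that held them. The share of all probes called was 0.164% in BALB hypothalamus, 0.0194% in C57BL/6 cerebellum and 0% in BALB cerebellum, BALB striatum and CBA hypothalamus. Member probes with an unadjusted limma p under 0.05 numbered 2, 0, 3, 2 and 0 in this order, where 11.2%, 9.34%, 0.558%, 2.37% and 2.77% of all probes had one. The BALB striatum median of the 12 tested members was -0.26, with Anxa4 A_51_P256342 below every young mouse (-0.42, limma adjusted p = 0.904), as were 2.21% of all tested probes. In BALB cerebellum S100a8 and S100a9 both differed by -1.41, with a limma adjusted p of 1.

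Whether the age differences themselves differed between cohorts was tested with limma on their contrast. Between C57BL/6 cerebellum and BALB hypothalamus 0% of probes were called and no member, the smallest member adjusted p being 0.872. The strongest of these was Anxa4 A_51_P256342, at -0.69 ± 0.20 (cerebellum minus hypothalamus), and Capg differed by -0.13 ± 0.16. Strain and region change together in this contrast and cannot be told apart. Between C57BL/6 and BALB hypothalamus 0.00725% of probes were called and no member, with S100a4 at -1.04 ± 0.29 (adjusted p = 0.583), S100a6 at -0.69 ± 0.23 and Anxa4 A_51_P256342 at -0.61 ± 0.20 (each adjusted p = 0.734). Between CBA and BALB hypothalamus 0% were called and no member, with a smallest adjusted p of 0.999. An unadjusted p under 0.05 was reached by 3, 4 and 2 of 12 member probes in these contrasts, and by 4.71%, 5.28% and 4.13% of all probes.

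Slides held several arrays each, so the differences were also read within slides that carried both ages. In C57BL/6 cerebellum Capg was higher in aged mice on 3 of 3 slides (0.51 to 0.67), as were S100a4 (0.38 to 0.84) and S100a8 (0.66 to 2.36). In BALB hypothalamus Capg (0.64 to 0.83), Anxa4 A_51_P256342 (0.44 to 1.29) and Anxa4 A_51_P256344 (0.73 to 2.39) were higher on 3 of 3. S100a4 was higher on 2 of 3 there, from -0.04 to 1.16. In CBA hypothalamus Capg (0.10 to 0.93) and S100a8 (0.75 to 2.91) were higher on 5 of 5 slides. In C57BL/6 hypothalamus Capg was higher on 3 of 5 (-0.85 to 1.29) and S100a4 on 2 of 5 (-0.92 to 0.21). Capg was lower on both frontal cortex slides (-0.20 and -0.08) and on the 1 such slide of BALB striatum (-0.08), and higher on that of BALB cerebellum (1.78).

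Pairs of members were compared array by array after the mean of each age was taken away, over 6 pairs and 7 cohorts of 8 to 20 arrays. S100a8 and S100a9 moved together in 7 of 7 cohorts, with Pearson r from 0.80 to 0.99 and Spearman rho from 0.78 to 0.99. The largest adjusted p among these was 0.00427 (two-sided permutation test, 100000 draws, adjusted over all 42 correlations). Without the 2 arrays farthest from the median, r was 0.69 to 0.99. Of all 42 correlations, 27 passed an adjusted p of 0.05. Taking away age means leaves tissue content that varied within an age. Cerebellar genes spanned 8.99 to 11.22 on middle-aged BALB cerebellum arrays and 9.19 to 14.48 on aged BALB striatum arrays. The part of this in the correlations was not tested.

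S100a4 and Capg correlated in 5 of 7 cohorts, up to r = 0.97, rho = 0.95, in BALB cerebellum (adjusted p = 0.000105 by permutation). The 2 exceptions were the cohorts with called members. In C57BL/6 cerebellum r was -0.03 and rho -0.06 (adjusted p = 0.935 by permutation), and in BALB hypothalamus r was 0.49 and rho 0.59 (adjusted p by permutation 0.0707 for r and 0.0309 for rho). Without the 2 farthest arrays these were -0.06 and 0.73. S100a4 with S100a6 passed in 5 of 7 cohorts (r 0.26 to 0.97, rho -0.10 to 0.94). Capg with Tyrobp, the adaptor of myeloid receptors, also passed in 5 of 7 (r 0.48 to 0.98, rho 0.58 to 0.98). This pair failed in C57BL/6 cerebellum (r = 0.50, adjusted p = 0.328 by permutation) and in BALB striatum (r = 0.48, adjusted p = 0.0995 by permutation). S100a10 with Anxa2 passed in 3 of 7 (r -0.44 to 0.68, rho -0.50 to 0.81). S100a8 with the haemoglobin gene Hba-a1 passed in 2 of 7 (r -0.14 to 0.81, rho -0.02 to 0.76), and in these 2, BALB striatum and CBA hypothalamus, r was 0.67 and 0.42 without the 2 farthest arrays.

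**Figure D4:**
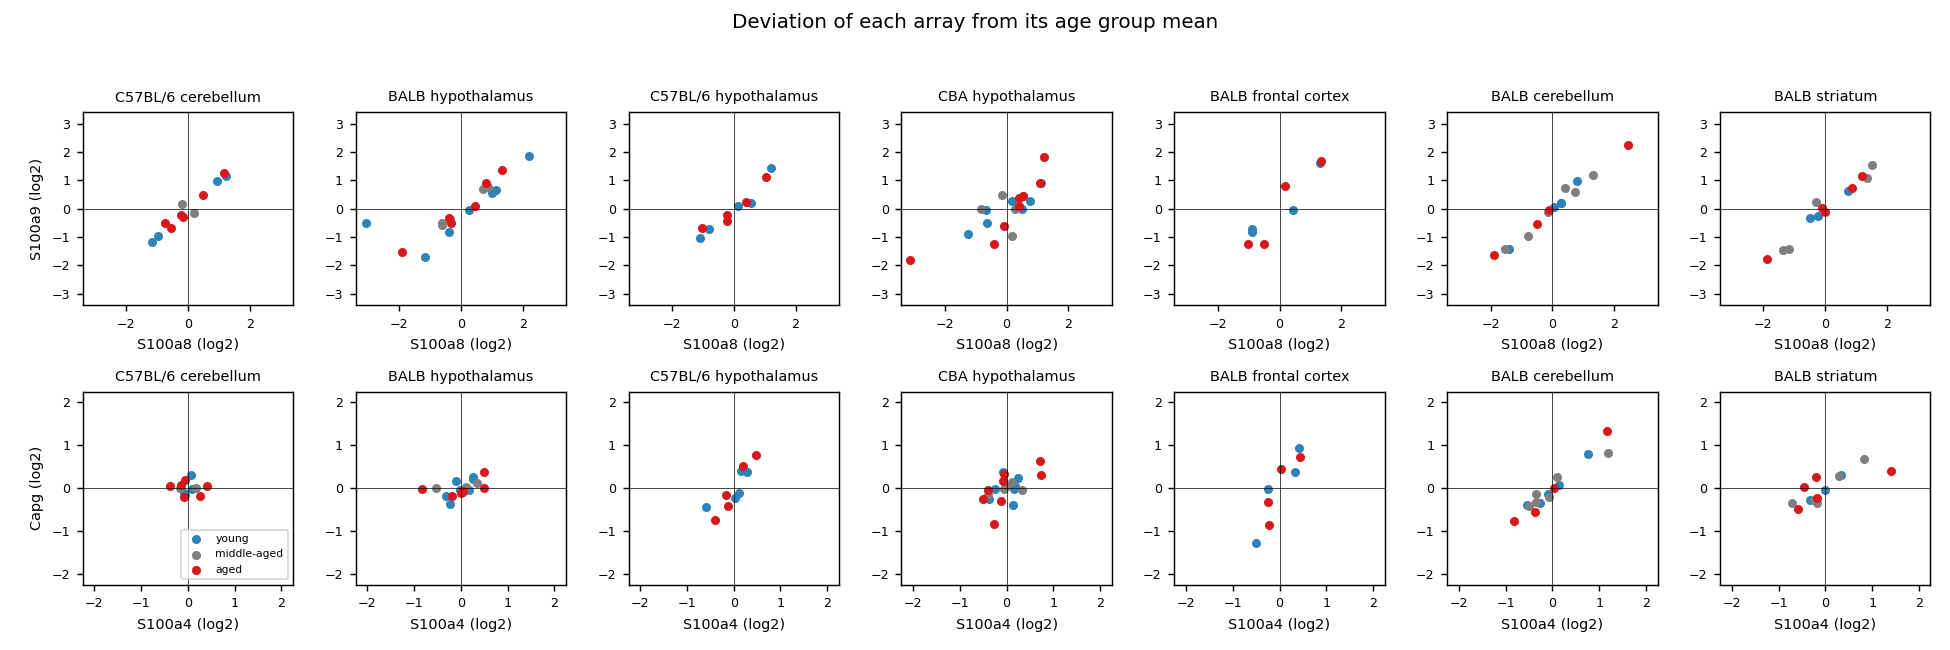
Deviation of each array from the mean of its age group (log2, both axes), for S100a8 against S100a9 (upper row) and S100a4 against Capg (lower row) in the 7 cohorts. The S100a8 and S100a9 points lie along a rising line in every cohort (r 0.80 to 0.99), while the S100a4 and Capg points of C57BL/6 cerebellum form no line (r = -0.03).

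S100a8 and S100a9 are close neighbours on chromosome 3, on opposite strands. Their promoters are shown, with that of S100a4, because the pair moved together, as the 60 bases before each RefSeq start (GRCm38.p6). Capitals mark TATAAA, searched on both strands. S100a4 is chr3:90603710-90603769 (plus), S100a8 is chr3:90669011-90669070 (plus), and S100a9 is chr3:90695722-90695781 (minus).
S100a4: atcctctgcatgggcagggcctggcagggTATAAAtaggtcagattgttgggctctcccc
S100a8: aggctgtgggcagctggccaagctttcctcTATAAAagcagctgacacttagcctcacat
S100a9: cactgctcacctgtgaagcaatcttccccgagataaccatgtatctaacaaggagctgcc

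TATAAA was in 3 of the 9 member promoters given for 8 genes, those of S100a4, S100a8 and Anxa2. Over all promoters of the same length it was in 1289 of 32851, or 3.92%. The letters were not in the window of S100a9.

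Myeloid genes were read as a list beside the called members. The paper's predicted complexes of genes overexpressed in these same cohorts include Lgals3, Cd68 and Lgals3bp with Capg, S100a4 and Anxa4. The list was chosen with such results known, so its calls are not independent of the members. Of 10 receptors, binding partners and myeloid genes related to the members, 4 rose in C57BL/6 cerebellum. These were Lgals3 (galectin 3, 1.35 ± 0.18 SE, limma adjusted p = 0.0372), Cd68 (a macrophage lysosome protein, 0.91 ± 0.13), Tyrobp (0.91 ± 0.16) and Lgals3bp (1.0 ± 0.19). The limma adjusted p was 0.0542 for Cd68, 0.0785 for Tyrobp and 0.119 for Lgals3bp. In BALB hypothalamus 4 rose, Lgals3 (1.65 ± 0.21, limma adjusted p = 0.000909), Tyrobp (0.70 ± 0.10), Cd68 (0.71 ± 0.12) and Tlr4, a receptor of calprotectin (0.66 ± 0.13). The limma adjusted p was 0.00312 for Tyrobp, 0.0067 for Cd68 and 0.0282 for Tlr4. Of all tested probes, 0.299% were called in C57BL/6 cerebellum and 0.692% in BALB hypothalamus. Tlr4 differed by 0.30 and was not called in C57BL/6 cerebellum. Ager, the receptor RAGE, differed by 0.06 there and by 0.67 ± 0.19 in BALB hypothalamus (limma adjusted p = 0.166), not called in either.

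Of 15 microglia and macrophage markers, all tested, 3 rose in C57BL/6 cerebellum (Trem2, C1qb and C1qc, by 0.65 to 1.0, limma adjusted p 0.0728 to 0.154) and 13 had higher means. Their mean level was 10.14 to 10.66 in young and 10.58 to 10.90 in aged mice. In BALB hypothalamus 5 rose (C1qa, Trem2, C1qb, C1qc and Ptprc, by 0.52 to 0.63, limma adjusted p 0.000612 to 0.0629), with levels of 10.02 to 10.34 and 10.32 to 10.58. These are whole-tissue values. In enriched microglia, read by RT-qPCR, the paper reports lower C1q in aged BALB hypothalamus. It proposes that most of the immune changes with age lie outside microglia. Border macrophage markers were 6.68 to 7.82 young and 7.28 to 8.17 aged in BALB hypothalamus, where both Ms4a7 probes rose (1.61 and 1.75, limma adjusted p = 0.000999 and 0.00398), and 0 of 7 were called in C57BL/6 cerebellum. T cell markers were 5.84 to 6.42 young and 6.50 to 7.16 aged in C57BL/6 cerebellum, where Nkg7 and Ccl5 rose (limma adjusted p = 0.0442 and 0.151). Choroid plexus markers were 9.37 to 10.63 young and 6.43 to 10.45 aged in C57BL/6 cerebellum, and pituitary markers 6.63 to 11.29 young and 6.77 to 16.18 aged in BALB hypothalamus, with none called in those 2 lists and cohorts. In BALB hypothalamus the choroid plexus markers were 7.16 to 7.79 young and 7.37 to 8.29 aged, and Aqp1 (the water channel aquaporin 1) rose by 1.49 ± 0.35 (SE, B = 0.05, limma adjusted p = 0.0701). Astrocyte markers were 13.73 to 13.97 young and 13.80 to 14.06 aged in C57BL/6 cerebellum. There the probe A_51_P333324 of Slc1a3 (a glutamate transporter) rose by 0.52 (B = 0.16, limma adjusted p = 0.169). In BALB hypothalamus the astrocyte markers were 13.06 to 13.44 and 13.11 to 13.49, and Aldoc (aldolase C) rose by 0.45 on 1 of its 2 probes (limma adjusted p = 0.0388). B cell markers were 5.61 to 7.22 young and 6.10 to 7.89 aged there, and Blnk (a B cell adaptor protein) rose by 0.52 (limma adjusted p = 0.0432). The part of any of these cells in the member differences was not tested.

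Other S100, annexin and gelsolin family genes were read as a comparison set of 26 genes, 24 of them on the array. Of these, 23 were tested in C57BL/6 cerebellum, none was called, and 17 had a higher mean, with a median of 0.10 over their probes. In BALB hypothalamus 19 were tested, none was called, and 14 had a higher mean, with a median of 0.20 over their probes. In BALB cerebellum, Scin (scinderin, an actin-severing protein) was called, at 1.84 (limma adjusted p = 0.0043). In that cohort 5.96% of all tested probes were called, and age and tissue content cannot be told apart.

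Across all arrays of a cohort, the genes whose pattern was most like that of Capg were Lyz1 (r = 0.97), Ctsz (0.96) and H2-Q2 (0.96) over the 12 arrays of C57BL/6 cerebellum, and 4931408A02Rik (0.93), Tlr4 (0.91) and Eif4ebp1 (0.90) over the 18 arrays of BALB hypothalamus. For S100a4 in C57BL/6 cerebellum they were Cotl1 (0.97), 2810449D17Rik (0.97) and 1810032O08Rik (0.95). For Anxa4 A_51_P256342 in BALB hypothalamus they were Apobec1 (0.93), Il17re (0.92) and Erap1 (0.91). These arrays share the age contrast and the normalization, so the values are descriptions.

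Levels across tissues were described in young mice after the 5 cohorts of the first array design were normalized together. Anxa5 was 15.10 ± 0.24 (SD) in C57BL/6 cerebellum, and in hypothalamus it was 13.93 ± 0.10 for BALB and 13.88 ± 0.18 for C57BL/6. The hypothalamus cohorts lay below C57BL/6 cerebellum by more than the SDs and did not differ from each other beyond their spread. Anxa4 A_51_P256342 was 10.09 ± 0.17 in C57BL/6 cerebellum, 9.0 ± 0.21 in BALB and 8.43 ± 0.09 in C57BL/6 hypothalamus, each apart from the next by more than either SD. Capg was 9.87 ± 0.22, 9.36 ± 0.21 and 9.28 ± 0.38 in this order, and the hypothalamus cohorts did not differ beyond their spread. S100a8 was 8.21 ± 1.37, 6.78 ± 1.57 and 5.80 ± 0.96, with neighbours closer than the larger of their SDs. The young arrays labelled BALB cerebellum and BALB striatum, whose cerebellar genes went against those labels, had Anxa5 at 14.78 ± 0.11 and 14.84 ± 0.25 and S100a8 at 8.63 ± 0.87 and 7.55 ± 0.67, and are given no place in the order. Cohorts were processed apart, so region, strain and cohort cannot be told apart in these levels.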

How the data were processed

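Tissue RNA of single mice was amplified, labelled with Cy3 and hybridized to 1-colour Agilent arrays. The authors deposited the scanner output of Feature Extraction (version 9.1 in the submitters' notes, several versions in the file headers), and its processed signal is an intensity on a linear scale, already background-corrected. The authors also deposited a table of log2 values of the same arrays, used as an alternative only. No aligner applies, and the number of arrays limits the precision. Here control spots and outlier spots were left out, spots of a probe were averaged, and log2 signals were quantile normalized within each cohort. To be tested, a probe had to be well above background on no fewer arrays than the smaller of the compared groups had. Differences were fitted with limma 3.58.1 in R 4.3.3 (lmFit and eBayes, prior proportion 0.01) across all tested probes, with age as the only term, and a probe was called at B above 0. The study's methods pair that threshold with a false discovery p under 0.05, which is applied here only as an alternative. SE is that of the fit. The fit was tested on simulated data. RefSeq identifiers gave 22951 and 23185 probes of the 2 designs a current symbol (GRCm38.p6), and probe positions are those of the files (mm7). The members and gene lists were chosen with earlier results of these data known. Other genes were named when a family gene was called, when a marker was called in C57BL/6 cerebellum or BALB hypothalamus or bears on a result, or as the 3 genes most like a called member. Nothing states whether mice shared a litter or a day of dissection. The file headers give scan dates, 3 in BALB hypothalamus, 2 in C57BL/6 hypothalamus and 1 in each other cohort. Scan date was not a term of the fit. Alternatives were 75th percentile scaling, normexp background correction (offset 50), the deposited log2 table, other filters, slide and replicate number as blocks, 2 ages only, an adjusted p of 0.05 in place of B, and each array left out in turn. The 8 frontal cortex arrays without scanner files entered the alternative with the deposited table only.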

Additional observations from a re-analysis of the deposited data

Results flagged for a closer look

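In 12 of 208 groups of 4 to 10 arrays (5.77%), the highest or lowest array of a member probe stood apart from the others by more than Dixon's critical value, where chance gives about 1 in 20. The gap to the nearest array is given as a share of the whole range, beside the log2 signal of the array and of its neighbour. Anxa4 A_51_P256344 accounted for 4 of them. It was lowest in C57BL/6 cerebellum aged replicate 4 (7.34, next 7.92, gap 0.648), in BALB hypothalamus young replicate 1 (4.07, next 5.89, gap 0.716) and in C57BL/6 hypothalamus young replicate 3 (6.85, next 7.35, gap 0.936), and highest in BALB hypothalamus middle-aged replicate 4 (6.73, next 6.34, gap 0.733). Capg was highest in BALB hypothalamus aged replicate 4 (9.96, next 9.59, gap 0.661). S100a4 was highest in BALB cerebellum middle-aged replicate 2 (11.82, next 10.74, gap 0.638).

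BALB striatum aged replicate 3 stood highest for S100a4 (11.30, next 9.70, gap 0.794) and for S100a6 (13.96, next 13.38, gap 0.74). Anxa4 A_51_P256342 was lowest in BALB striatum middle-aged replicate 2 (9.49, next 9.71, gap 0.718). CBA hypothalamus aged replicate 3 stood lowest for S100a8 (1.78, next 4.50, gap 0.626) and for S100a10 (10.42, next 10.77, gap 0.55). Anxa2 A_51_P165342 was lowest in CBA hypothalamus aged replicate 8 (7.07, next 8.08, gap 0.579).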

How the results depend on the processing

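Capg in BALB hypothalamus was called under 23 of 23 alternatives (differences 0.55 to 0.77) and Anxa4 A_51_P256342 there under 19 of 23 (0.58 to 0.83). In C57BL/6 cerebellum Capg was called under 10 of 20 (0.51 to 0.70) and S100a4 under 6 of 20 (0.65 to 0.81). The count of called members in BALB hypothalamus, 2 in the report, was 4 with normexp and with the deposited log2 table (both add Anxa4 A_51_P256344 and S100a4), 3 with 75th percentile scaling (adds Anxa4 A_51_P256344), 1 with 2 ages only (Capg), and 1 to 4 with single arrays left out. In C57BL/6 cerebellum the count of 2 was 1 with 75th percentile scaling and with no filter (Capg), 0 with slide as a fixed block, with 2 ages only and at an adjusted p of 0.05, and 0 to 1 with single arrays left out. In CBA hypothalamus the count of 0 was 1 with normexp and with the deposited table (S100a8 in both), and 0 to 1 with single arrays left out. The difference of age effects between C57BL/6 and BALB hypothalamus gave 0 to 1, the 1 being S100a4 without C57BL/6 hypothalamus young replicate 4. The other counts stayed at 0. The causes were not tested.

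Replicate numbers were not used as pairs in the main fits, and whether they pair the mice cannot be decided here. Correlations of same-numbered young and aged arrays ran from -0.46 (C57BL/6 hypothalamus) to 0.82 (frontal cortex). Deviations correlated over 0.1 for 0 of 4 numbers in C57BL/6 cerebellum, 2 of 6 in BALB, 0 of 5 in C57BL/6 and 3 of 7 in CBA hypothalamus, 1 of 4 in BALB cerebellum and 2 of 3 in BALB striatum, and for 2 of 2 in frontal cortex, too few pairs to decide. With the replicate block the count of called members was 1 in BALB hypothalamus and 0 in C57BL/6 cerebellum.

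Signs turned for small differences in C57BL/6 cerebellum. Anxa4 A_51_P256342 was -0.00138 with normexp, -0.0056 with the deposited table, -0.0325 with the replicate block and -0.02004 to 0.10 with arrays left out. Anxa4 A_52_P456440 was -0.0250 with normexp, -0.0299 with the replicate block and -0.14 to 0.27 with arrays left out. Left-out ranges were -0.15 to 0.0324 for Anxa4 A_51_P256344 and -0.0862 to 0.0799 for Anxa5. The median of the tested members ran from -0.02004 to 0.27 there, with 6 to 9 higher, and from 0.53 to 0.72 in BALB hypothalamus, with 12 of 12 higher in each. With 75th percentile scaling 28 pair correlations passed, against 27. The alternatives that leave out an array of the member medians and counts of higher members were chosen after seeing the data. Signal near background limits S100a8 in CBA hypothalamus and A_52_P456440 everywhere.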
